A study of Mus musculus with 4 samples.

Results

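miR-21a is a mouse microRNA hairpin from which both arms, mmu-miR-21a-5p and mmu-miR-21a-3p, can be counted. The rule took the rows of the authors' deposited table named exactly for these arms, and it found 2 of 1073 listed miRNAs. Naive CD4+ T cells of wild-type mouse spleens received ASO or its control CRO by transfection, were activated through CD3 and CD28, and were sequenced for small RNA at 48 h. All cells were transfected and activated, so the data hold no resting or untransfected cells. Each group held 2 samples. What ASO and CRO stand for is not spelled out in the labels, and neither is whether samples were drawn from different mice or cultures, so p-values cover only the spread among them, possibly a technical one.

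A microRNA is cut from a hairpin precursor, and usually one arm, the guide, is kept in an Argonaute protein while the other, the passenger, is degraded. The guide finds its target mRNAs mainly through its seed, bases 2 to 8. miR-21a-5p is the guide of its hairpin. It is known to rise when T cells are activated, to be transcribed under AP-1 and STAT3, and to repress Pdcd4 and Spry genes, which restrain growth and signalling.

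The sequences of both arms follow here with those of miR-21b and miR-21c, the listed miRNAs that carry the same name stem and could share reads with them. All are from RefSeq (GRCm38.p6), 5′ to 3′, with the seed in capitals.
miR-21a-5p: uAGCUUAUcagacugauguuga
miR-21a-3p: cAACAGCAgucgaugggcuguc
miR-21b: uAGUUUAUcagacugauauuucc
miR-21c: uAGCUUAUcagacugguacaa

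The arms have different seeds, and each is 22 bases long. Of 1679 mature mouse miRNAs in the reference, miR-21c alone shares the seed of miR-21a-5p, and none shares that of miR-21a-3p. Counted from the 5′ end of miR-21a-5p, miR-21c matches it over the leading 15 bases and then differs by A16G, G18A, U19C, U20A and G21A. miR-21b differs within the seed, by C4U, and further on by G18A, G21U and A22C. Any read that covers the last bases can therefore be told apart. How shorter reads were assigned is not given by the labels.

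The Mir21a gene lies on the minus strand of chromosome 11, at chr11:86584067-86584158. The 5p arm is at chr11:86584120-86584141 and the 3p arm at chr11:86584082-86584103. The GENCODE M21 annotation of the same build places the hairpin in exon 12 of a protein-coding transcript of Vmp1, inside its 3′ untranslated region and on the same strand. Vmp1 encodes a membrane protein of autophagy. The study's own build was mm9, and no coordinate was carried between builds. In the fold predicted by RNAfold, 19 of the 22 bases of the 5p arm pair with the 3p arm, and 16 bases lie between the arms.

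The deposited table holds a mean normalized count per group, that is, counts divided by each library's size factor and averaged. The count of each library could be worked out from these means, as described under the processing. ASO libraries held 10192717 and 10483405 counts in all, and CRO libraries 5617699 and 3300457. They are called a and b, since nothing ties them to a replicate number. Of the 1073 listed miRNAs, 13 passed the authors' adjusted p of 0.05, 12 of them lower (1.12%) and 1 higher (0.0932%) in ASO. miRNAs alone do not define a CD4+ T cell, so the label was checked only for RNA of other cells. The summed normalized counts of the 2 myeloid markers were 5599 and 5669 in ASO against 6189 and 7239 in CRO. The 3 erythroid markers summed to 1581 and 1313 in ASO against 2228 and 2409 in CRO. The 2 endothelial markers summed to 1687 and 2334 in ASO against 1935 and 1399 in CRO. The 2 stromal markers summed to 85 and 67 in ASO against 124 and 75 in CRO. None of the 9 was at 0, and none passed in the authors' deposited table. In such bulk samples fewer cells of a type and less RNA per cell cannot be told apart.

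miR-21a-5p, the guide arm, was among the most counted miRNAs of both groups and its mean did not differ between them beyond the spread of the samples. It had 980983 and 1292055 raw counts in ASO libraries a and b, and 774647 and 262714 in CRO libraries a and b. After division by the size factors these were 603195 and 908708 in ASO, against 990720 and 471938 in CRO. The highest and the lowest value were both CRO libraries, and both ASO values lay between them. The authors' means were 755952 in ASO and 731329 in CRO, with SDs of 216030 and 366834 computed from the decoded libraries (n = 2 each). In the authors' deposited table, turned here to ASO over CRO, the log2 ratio was 0.05 (p = 0.889, adjusted p = 1).

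miR-21a-3p, the passenger arm, was counted 203 and 250 times in ASO libraries a and b, and 126 and 59 times in CRO libraries a and b. The normalized counts were 125 and 176 in ASO, against 161 and 106 in CRO. The order of the 4 libraries differed from that of the guide arm only in which library was highest, here ASO b. The authors' means were 150.3 in ASO and 133.6 in CRO, with SDs of 36.1 and 39.0 from the decoded libraries (n = 2 each). The log2 ratio in the authors' deposited table was 0.17 (p = 0.838, adjusted p = 1). Exact Poisson 95% intervals, which cover counting error only, ran from 108.2 to 143.2 and from 154.7 to 199.0 in ASO libraries a and b, and from 134.2 to 191.9 and from 80.7 to 136.7 in CRO libraries a and b. For this arm counting error alone thus makes up a visible part of the differences, whereas for the guide arm it is under 1% of the value in each library.

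**Figure D1:**
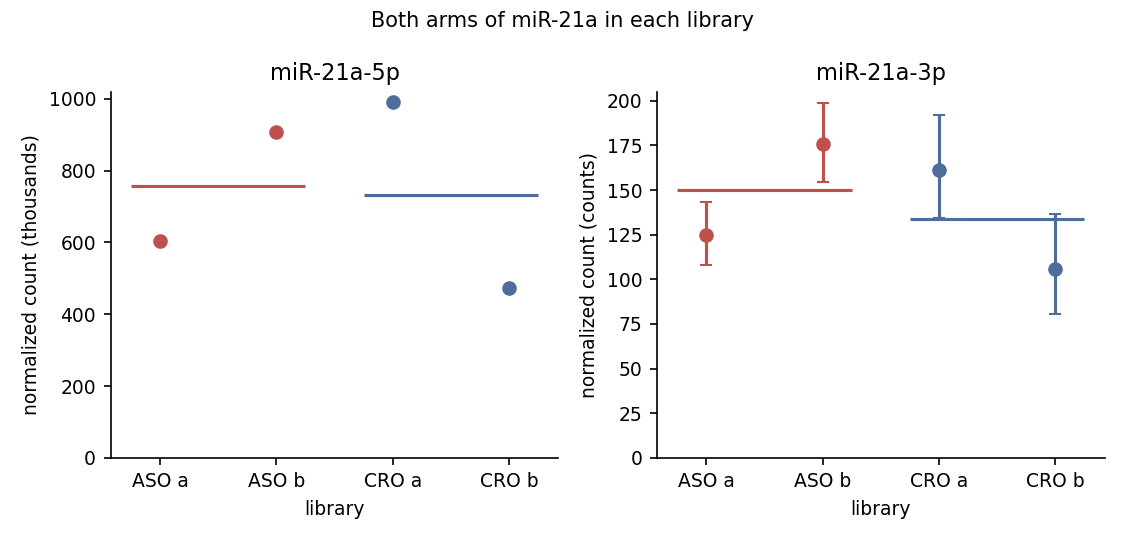
Normalized counts (y axis, from 0) of miR-21a-5p (in units of 1000) and of miR-21a-3p (in units of 1), in the ASO and CRO libraries (x axis); horizontal lines are the authors' group means and bars are exact Poisson 95% intervals, hidden by the points for miR-21a-5p. Within each group 1 library was high and 1 low for both arms, while the lines of the groups lie close together.

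Neither member was among the 1.21% of listed miRNAs that passed the authors' test in either direction. Nor did either keep its groups apart, as did 41.9% of the 482 miRNAs that averaged 10 or more normalized counts over the 4 libraries (their base mean). A limma fit of the decoded libraries, on log2(normalized count + 1) over these 482 miRNAs, put the log2 ratio of miR-21a-5p at 0.11 ± 0.39 (SE, adjusted p = 0.897). Its 95% interval of -0.79 to 1.02 spans folds of 0.579 to 2.02, so changes within that range are compatible with these 2 libraries a group. The interval is not adjusted for the number of miRNAs tested. For miR-21a-3p the fit gave 0.18 ± 0.32 (adjusted p = 0.85), with an interval of -0.57 to 0.93. The same fit called 14 miRNAs lower (2.9%) and 1 higher (0.207%) in ASO, together 3.11% of those tested.

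The sign of the small difference depended on single libraries. Without ASO library a, the limma log2 ratio of miR-21a-5p was 0.41 (adjusted p = 0.951), and without ASO library b it was -0.18 (adjusted p = 0.997). Without CRO library a, which leaves CRO with a single library, it was 0.65. Without CRO library b it was -0.42 (adjusted p = 0.623). miR-21a-3p moved the same way, with values of 0.42, -0.07, 0.48 and -0.12 in the same order of libraries, and its adjusted p was at least 0.263 in each. Set as a share of the summed means, the log2 ratio of miR-21a-5p was -0.01.

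What varied most was the pair of libraries within a group. miR-21a-5p was 1.51-fold higher in ASO library b than in ASO library a, and 2.10-fold higher in CRO library a than in CRO library b. miR-21a-3p was higher in the same libraries, by 1.41-fold and 1.52-fold. Among the 273 miRNAs whose base mean was 100 or more, the absolute log2 difference of miR-21a-5p between libraries was larger than that of 94.5% in ASO (0.59, against a median of 0.23). In CRO it was also larger than that of 94.5% (1.07, against a median of 0.39). miR-21a-3p exceeded 89.7% in ASO and 72.2% in CRO. Among the 20 most counted miRNAs, miR-21a-5p had the second largest difference in each group, after miR-7a-5p at 0.75 in ASO and 1.14 in CRO, a miRNA named after its values were seen. Scaled by library totals in place of size factors, the folds of miR-21a-5p were 1.28 in ASO and 1.73 in CRO. Scaled by the upper quartile, they were 1.75 and 1.76. These alternatives were chosen after the data were seen, and in each the same library of a group was the higher one.

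**Figure D2:**
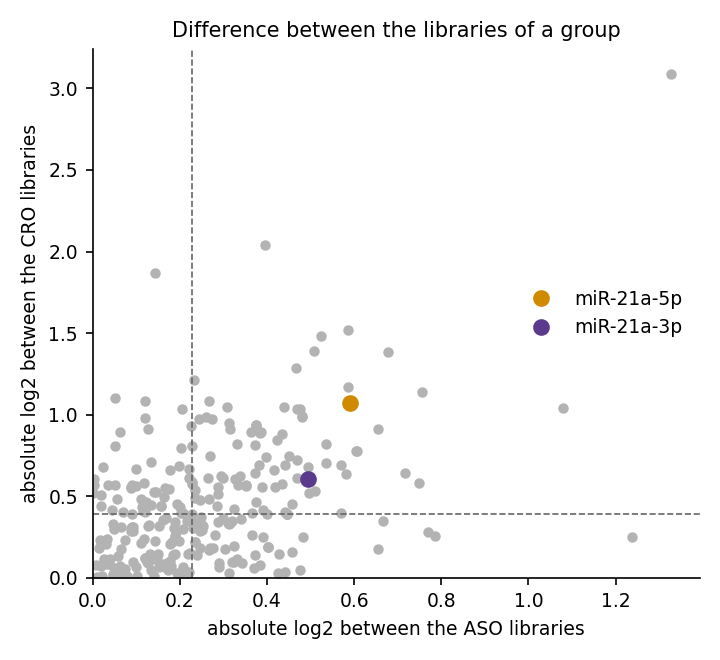
Absolute log2 difference between the libraries of ASO (x axis) and of CRO (y axis) for the 273 miRNAs whose base mean was 100 or more, with dashed lines at the medians of 0.23 and 0.39. miR-21a-5p lies at 0.59 and 1.07 and miR-21a-3p at 0.49 and 0.60, both above both medians.

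The high and low libraries of miR-21a-5p were shared by part of the other miRNAs. ASO library b above ASO library a together with CRO library a above CRO library b held for 39.9% of the 273 miRNAs, for 159 of all 482 tested (33.0%) and for 13 of the 20 most counted. These sets include miR-21a itself. The summed normalized counts of all 482 had this order too, at 6266073 and 7371663 in ASO, against 7183385 and 5927569 in CRO. How far the scaling makes this order for the other miRNAs was not tested. Of the 18 other miRNAs in the list known to rise on T cell activation, 11 had this order, and of the 15 in the list known to fall, 5 did. The endothelial marker sum given above had it too, and its part in the result was not tested. The libraries also differ in depth. CRO library b was the shallowest and the lowest for both arms. ASO library b, the second highest for the guide arm and the highest for the passenger arm, had the most counts. Its total was close to that of ASO library a (10483405 against 10192717), and its size factor was smaller (1.422 against 1.626). CRO library a, with fewer counts (5617699) than either ASO library, was the highest for the guide arm. The part of depth was not tested either.

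The miRNAs whose values were most like those of each arm were found by the root mean square difference of log2 values, each centred on its own mean over the 4 libraries. The search covered those whose base mean was 100 or more. For miR-21a-5p the closest of 272 were miR-192-5p (0.045), miR-872-5p (0.053) and miR-101b-3p (0.065), where the median miRNA lay at 0.47. miR-192-5p, for example, had 1126 and 1566 normalized counts in ASO, against 1730 and 846 in CRO. miR-21a-3p was the 18th closest to miR-21a-5p, at 0.173. For miR-21a-3p the closest were miR-126a-5p (0.041), which is on the endothelial list, miR-148a-3p (0.061) and let-7i-5p (0.061), and miR-21a-5p was the 44th. None of these miRNAs passed in the authors' deposited table. With only 4 libraries, many miRNAs can look alike in this way.

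In the order of counts, miR-21a-5p took 11.1% of the summed means in ASO and 11.2% in CRO, and ranked 3rd in each. Mature miRNAs are nearly equal in length, so normalized counts were not scaled by length. How evenly the library preparation captured each sequence was not tested, so the ranks are of counts. Per library its share of all counts was 9.62% and 12.3% in ASO libraries a and b, and 13.8% and 7.96% in CRO libraries a and b. It ranked 3rd and 2nd in ASO and 1st and 3rd in CRO. In CRO library a it stood above miR-155-5p, an activation-induced miRNA that led the other 3 libraries. By normalized count miR-155-5p varied little within CRO, while its share of all counts was 11.9% and 14.8% in CRO libraries a and b. miR-155-5p had 937056 and 1092052 normalized counts in ASO, against 854191 and 876434 in CRO. The ratio of miR-21a-5p to it was 0.644 and 0.832 in ASO, against 1.16 and 0.538 in CRO.

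The neighbours in the order were miR-16-5p above, a brake on the cell cycle, and miR-142a-3p below, a miRNA of all blood cells. miR-16-5p had 744206 and 876292 normalized counts in ASO, against 851639 and 730833 in CRO. miR-21a-5p was above it in 2 of 4 libraries, and the means differed by 54297 in ASO, less than the SD of miR-21a-5p. miR-142a-3p had 568729 and 693922 in ASO, against 581801 and 407198 in CRO. It was below miR-21a-5p in 4 of 4 libraries, by 1.06-fold to 1.70-fold, although in each group the difference of means was smaller than that SD.

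**Figure D3:**
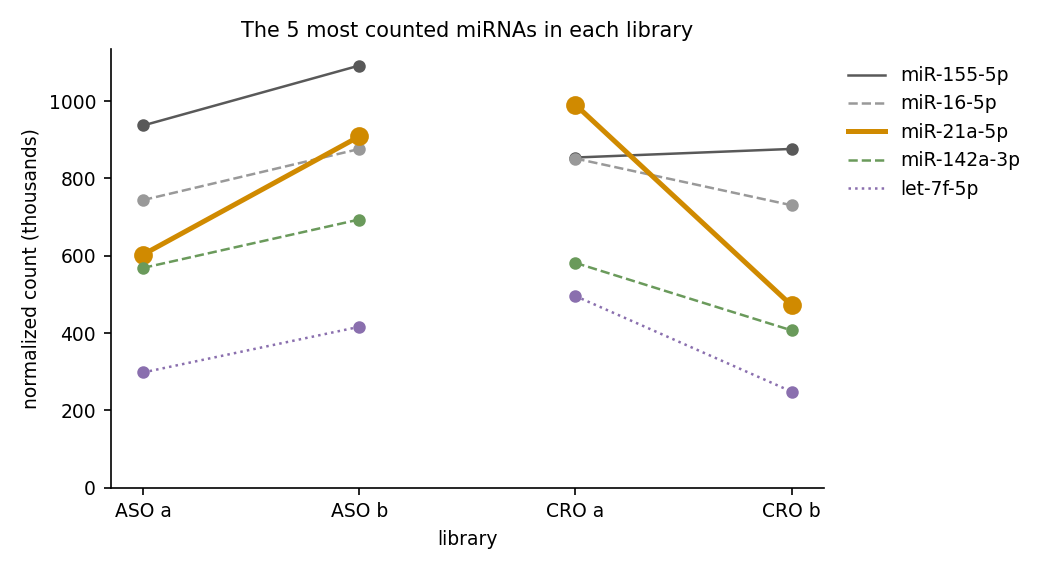
Normalized counts in units of 1000 (y axis, from 0) of the 5 most counted miRNAs in the ASO and CRO libraries (x axis), with lines joining the libraries of a group. miR-21a-5p crosses miR-16-5p in both groups and lies above miR-155-5p in CRO library a alone, while miR-155-5p differs little between the CRO libraries.

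miR-21a-3p ranked 235th in ASO and 249th in CRO, with 0.0022% of the summed means in ASO and 0.00204% in CRO. In single libraries its rank was 252 and 225 in ASO, against 233 and 269 in CRO. Its neighbours in the order of ASO means were miR-5104 above and miR-467e-3p below. miR-5104 averaged 153 in ASO and 165 in CRO, and miR-467e-3p 150 in ASO and 117 in CRO. Neither differed from miR-21a-3p by more than the larger of their SDs in either group.

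**Figure D4:**
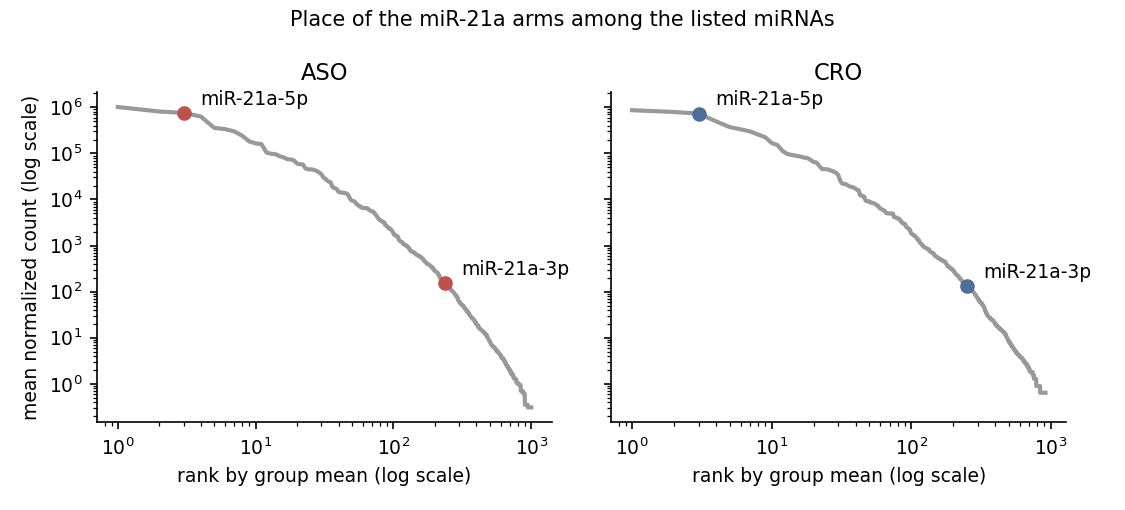
Mean normalized count (y axis, log scale) of the listed miRNAs above 0, ordered from the most to the least counted (x axis, log scale), in ASO on the left and CRO on the right. miR-21a-5p ranks 3rd in both groups, and miR-21a-3p 235th in ASO and 249th in CRO.

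The near copies were barely counted. miR-21b had 2 and 3 counts in ASO, against 1 and 0 in CRO. miR-21c, with the seed of miR-21a-5p, had 1 and 2 counts in ASO, and in CRO it had 0 in each library, which allows up to 3 counts per library (a one-sided 95% limit, for counting error only). Adding both to miR-21a-5p left its share at 11.1% in ASO and 11.2% in CRO.

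The arm ratio compares guide and passenger of the same hairpin within a library, so scaling between libraries does not touch it. The 5p arm was counted 4832 and 5168 times as often as the 3p arm in ASO libraries a and b, and 6148 and 4453 times in CRO libraries a and b. The lowest and the highest ratio were both in CRO, and the groups overlap. The 3p arm made up 0.0207% and 0.0193% of the reads of both arms in ASO, with Wilson 95% intervals of 0.018% to 0.0237% and 0.0171% to 0.0219%. In CRO it made up 0.0163% (0.0137% to 0.0194%) and 0.0225% (0.0174% to 0.029%). Each of these intervals overlaps each of the others.

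A limma fit of the log2 arm ratio over 135 hairpins with each arm at a base mean of at least 10 gave a change for miR-21a of -0.06 ± 0.28 (SE), ASO minus CRO, with an adjusted p of 0.962 over these hairpins. Its 95% interval ran from -0.84 to 0.71. The mean log2 arm ratio was 12.28 ± 0.07 in ASO and 12.34 ± 0.33 in CRO (SD, n = 2 each). Of the 135 hairpins, 117 had a larger absolute change, and the fit called 1 (0.741%). That was miR-3068, named after its value was seen, at 1.99 ± 0.14 (adjusted p = 0.0189). Without CRO library a the change for miR-21a turned to 0.17, which did not pass (adjusted p = 0.774).

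Few hairpins were as lopsided. The more counted arm exceeded the other by a median of 9.98-fold over the 135 hairpins, and by 1000-fold or more in 7. From base means, miR-21a at 5239-fold was second, between miR-146a at 6595 and miR-155 at 4609, and it was also second among all 331 hairpins with both arms listed. By group, miR-21a stood at 5029 in ASO, between miR-146a at 5167 and miR-155 at 3972. In CRO it stood at 5475, below both miR-146a at 8933 and miR-155 at 5676. In ASO miR-23a, named after its values were seen, was more lopsided than each of these, with the 3p arm ahead. Its log2 of 5p over 3p was -12.68 in ASO and -11.43 in CRO, beside 12.30 and 12.42 for miR-21a. The lower arm of miR-23a had a base mean of only 11.3, near the minimum of 10. The fold a hairpin can show is limited by its depth, and how evenly its arms were captured was not tested. miR-146a-5p, a feedback inhibitor of NF-kB signalling, and miR-155-5p are both on the activation-induced list. The rest of the 7 hairpins were not. The higher arms of let-7b (2217-fold) and miR-150 (2117-fold) are on the list known to fall on activation. Those of miR-23a (3895-fold) and let-7g (2757-fold) are on neither list. let-7b and let-7g were named after their values were seen. miR-142a, in contrast, kept both arms, with a 5p over 3p ratio of 0.475 in ASO and 0.606 in CRO.

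In the same fit the log2 change of the arm ratio was -0.51 ± 0.28 for miR-155 (adjusted p = 0.841), -0.76 ± 0.32 for miR-146a and -0.36 ± 0.15 for miR-142a (adjusted p = 0.744 for each). For miR-155 the passenger arm miR-155-3p had 282.2 and 228.6 normalized counts in ASO, against 143.2 and 161.7 in CRO. Its groups did not overlap, which held for 41.9% of the 482 tested miRNAs. Its log2 ratio in the authors' deposited table was 0.74 (p = 0.0538, adjusted p = 1), beside 0.17 for miR-21a-3p. The authors' log2 ratio of miR-146a-3p, the passenger arm of miR-146a, was 0.71 at a base mean of 24.8. Its groups did not overlap either. Nor did those of miR-155-5p, while the groups of miR-146a-5p and of both miR-142a arms overlapped. Whether the change of miR-21a differs from that of these hairpins was not tested.

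**Figure D5:**
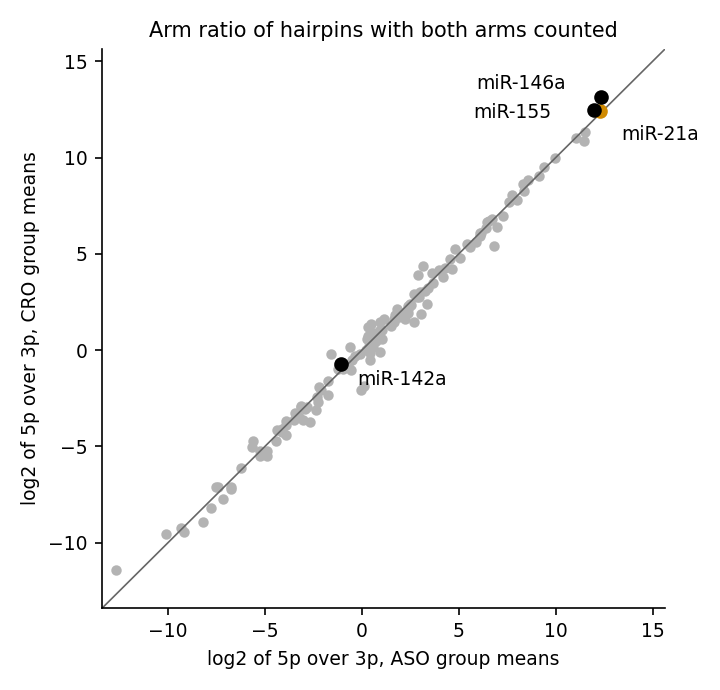
Log2 of the 5p over the 3p arm in the ASO group means (x axis) and the CRO group means (y axis) for 135 hairpins with each arm at a base mean of at least 10; the line marks equal ratios. miR-21a lies near the line at the upper end, beside miR-155 and miR-146a, and miR-142a near 0.

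Other miRNAs tied to T cell activation were set beside miR-21a through a list of 20 known to rise, which includes both arms, and a list of 15 known to fall. All 35 had a base mean of at least 10, and none passed in the authors' deposited table in either direction, where 13 of 1073 (1.21%) passed. The median log2 ratio was 0.21 for the list that rises, with 14 of 20 above 0, and -0.17 for the list that falls, with 5 of 15 above 0. Over all 482 tested miRNAs it was 0.04, with 256 above 0. miR-21a-5p was at 0.05 and miR-21a-3p at 0.17. With SEs of 0.39 and 0.32 in the limma fit, neither arm can be placed nearer to one of these medians than to another.

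The most counted members of the first list after miR-155-5p and miR-21a-5p were miR-146a-5p, at a log2 ratio of -0.08, and miR-92a-3p of the miR-17-92 cluster, at -0.32. The values of the list ran from -0.32 for miR-92a-3p to 0.98 for miR-96-5p. In the second list the most counted were miR-29a-3p (0.02), miR-150-5p (-0.45), miR-26a-5p (-0.18) and miR-342-3p (-0.17).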

How the data were processed

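Small RNA libraries were made with the Illumina TruSeq kit from Trizol-extracted RNA, per the labels' protocols, from 2 ASO and 2 CRO samples. DESeq (version not given) and the mm9 build are known from the submitters' processing notes, while aligner, trimming and miRNA annotation were not given in those sources. Per the file headers, the table deposited by the authors holds mean normalized signal (counts over size factors) for all libraries and per group, the fold ratio and its log2 as CRO over ASO, and the p-value of the test, raw and adjusted. A further deposited table, of how many miRNAs the authors called, was not used. For 843 of 843 miRNAs with a finite value, the deposited log2 equals that of the group means, and it was turned here to ASO over CRO.

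Each group mean is a sum of 2 whole counts over their size factors, written to 15 digits or fewer. The pairs of counts were decoded from this. All 1073 miRNAs were given back to a relative tolerance of 1e-13. The ASO mean of miR-155-5p had 6 pairs within rounding, and 1 of them returned size factors, as median ratios over 636 miRNAs, that match those read from the other means to 1e-09. The next pair deviated by 0.000536. Size factors of ASO were 1.626 and 1.422, and those of CRO 0.782 and 0.557. Nothing ties a decoded library to a replicate.

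The result of each arm is the authors' test at an adjusted p of 0.05. limma 3.58.1 (R 4.3.3, trend and robust, Benjamini-Hochberg adjustment) was fitted on log2(normalized count + 1) over the 482 miRNAs whose base mean was 10 or more, and for arm ratios over 135 hairpins, and was tested on simulated data. Folds on that scale understate changes of low miRNAs. Other steps used RNAfold 2.7.2 and Python 3.11.15 with pandas 2.3.3 and scipy 1.17.1. Sequences were matched by name for 890 of 1073 miRNAs. The limma intervals rest on the spread between libraries, while the Poisson and Wilson intervals cover counting error only. The latter treat reads as independent, which PCR reads without molecular identifiers are not, so they may be too narrow.

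Besides both arms, the rule for naming took near copies, miRNAs with the same seed, neighbours in the ASO order, the 3 miRNAs closest to each arm over the libraries, the hairpins miR-155, miR-146a and miR-142a, the 4 most counted of each activation list and the markers of other cells. Members, lists and tests were chosen with earlier results of these data known.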

Additional observations from a re-analysis of the deposited data

How the results depend on the processing

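The limits are 2 libraries a group and shallow CRO libraries, of which CRO library b gives 59 counts of miR-21a-3p. No paired analysis was possible because nothing in a group mean numbers the libraries decoded from it. A fit that leaves out a library takes its variation from the complete group alone, and assumes that the lone library varies like it. Of 37 alternatives of both log2 ratios and the arm ratio, 34 had a test, of which 0 passed (smallest adjusted p 0.139), and 6 of the 37 changed sign. With all libraries kept, the log2 ratio lay between -0.01 and 0.19 for miR-21a-5p and between 0.11 and 0.25 for miR-21a-3p, over 10 alternatives each (other pseudocounts, filters and scalings, and limma-voom). The -0.01 came from the ratio of shares of summed means, which divides by group sums that differ, and it is the 1 change of sign among them. Leaving out 1 library gave -0.42 to 0.65 for miR-21a-5p and -0.12 to 0.48 for miR-21a-3p, with the sign turned without ASO library b (-0.18 and -0.07) and without CRO library b (-0.42 and -0.12). The arm ratio ran from -0.30 to 0.17, with its sign turned without CRO library a (0.17); the cause was not tested. Without miR-155-5p in the sum, the ASO shares were 13.0% for miR-21a-5p and 0.00259% for miR-21a-3p, a larger share because the sum is smaller. In single libraries the share ran from 9.62% to 12.3% in ASO and from 7.96% to 13.8% in CRO for miR-21a-5p, and its rank from 2 to 3 in ASO and from 1 to 3 in CRO.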

Other observations

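The first base differed between the arms of miR-21a, with U in the more counted 5p arm and C in the less counted 3p arm. Of the 135 hairpins with each arm at a base mean of at least 10, both arms of 95 had a sequence in the reference. The more counted arm began with U in 53 of these (55.8%) and with C in 19. The less counted arm began with U in 20 (21.1%) and with C in 31 (32.6%). The pair seen in miR-21a, U in the more and C in the less counted arm, occurred in 22 of 95 hairpins (23.2%). Paralogous hairpins share sequence, so these are counts and no test was made.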
